A study of Mus musculus with 6 samples.

Results

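The cell cycle and DNA replication genes described here are 51 genes named by symbol, all of them found among the 14490 genes of the deposited mRNA-seq table of splenic NK cells. Rows were matched by gene symbol alone. The genes fall by known role into 25 that act in mitosis, 15 that act in S phase and 11 regulators of G1 and of the step from G1 to S phase. NK cells were purified by FACS from spleens of C57BL/6 mice of 2 genotypes, with 3 samples per genotype. WT mice were Mettl3fl/fl, with both Mettl3 alleles floxed and no Cre. In cKO mice the same floxed alleles were combined with 1 Ncr1-Cre allele (labelled Ncr1Cre-Mettl3fl/fl), so that Cre is made where Ncr1 is transcribed, in NK cells and some other innate lymphoid cells. METTL3 is the catalytic subunit of the enzyme that writes N6-methyladenosine on mRNA. Because only cKO mice carried Cre, loss of Mettl3 and presence of the Cre allele cannot be told apart. The question was how mitotic, S phase and G1 genes compared between cKO and WT NK cells.

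The cell cycle runs through G1, DNA synthesis in S phase, G2 and mitosis. In G1, D-type cyclins with CDK4 and CDK6 phosphorylate the retinoblastoma protein, which frees E2F factors to switch on the replication genes. Mitotic genes come on later, through B-MYB and FOXM1, and are held off in resting cells by the DREAM repressor complex. Splenic NK cells at steady state are mostly at rest and divide in response to IL-15 or infection. In bulk samples, more cycling cells and more RNA per cycling cell cannot be told apart. By flow cytometry at steady state, the authors reported no significant difference between these genotypes in Ki-67, a protein marker of proliferation. They also reported unaltered cell cycle progression in NK cells. With IL-15 added to cultured splenocytes, they reported less proliferation in NK cells of cKO mice.

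The share of promoters with known cell cycle motifs was counted in each class, and a few promoters are shown first. RefSeq promoters (GRCm38.p6, from 250 bases before the start of transcription to 50 bases after it) were matched for 40 of the 51 members, 19 of mitosis, 13 of S phase and 8 of G1. Of these, 4 members (Ccnd3, E2f2, Mcm7 and Uhrf1) had 2 promoters in the table, and a motif was counted for a gene where any of its promoters held it. Both strands were searched for 3 motifs. They were the CHR (cell cycle genes homology region, TTTGAA or TTCGAA), through which DREAM, B-MYB and FOXM1 complexes are known to act, the CCAAT box (CCAAT), bound by NF-Y, and an E2F site (TTTGGCGC, TTTCCCGC, TTTGCCGC or TTTCGCGC). E2F letters can overlap one another where they meet head to head, and no CHR or CCAAT match of the printed stretches shares bases with another match. The 250 bases before the start of 5 members are printed 5′ to 3′ on the gene's own strand, with every match in capitals, since they show the mitotic arrangement of CCAAT boxes with a CHR and the S phase arrangement with E2F sites.
Mki67 promoter, chr7:135716380-135716629, minus strand: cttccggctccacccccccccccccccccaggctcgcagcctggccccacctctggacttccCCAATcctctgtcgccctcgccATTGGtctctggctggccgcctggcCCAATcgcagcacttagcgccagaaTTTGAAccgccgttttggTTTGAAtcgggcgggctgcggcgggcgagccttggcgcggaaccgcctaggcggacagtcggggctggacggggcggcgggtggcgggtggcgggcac
Ccnb2 promoter, chr9:70421555-70421804, minus strand: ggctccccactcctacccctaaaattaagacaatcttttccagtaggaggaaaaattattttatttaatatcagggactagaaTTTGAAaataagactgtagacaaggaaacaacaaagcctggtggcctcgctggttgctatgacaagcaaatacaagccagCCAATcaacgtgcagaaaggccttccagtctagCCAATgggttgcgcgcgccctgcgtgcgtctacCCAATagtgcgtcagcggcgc
Cdk1 promoter, chr10:69352913-69353162, minus strand: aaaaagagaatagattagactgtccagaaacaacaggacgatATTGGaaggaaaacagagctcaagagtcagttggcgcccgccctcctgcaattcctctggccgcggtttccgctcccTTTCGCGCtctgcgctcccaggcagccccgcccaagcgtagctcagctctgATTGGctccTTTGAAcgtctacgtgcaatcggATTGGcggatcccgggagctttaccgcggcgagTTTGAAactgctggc
Mcm6 promoter, chr1:128359706-128359955, minus strand: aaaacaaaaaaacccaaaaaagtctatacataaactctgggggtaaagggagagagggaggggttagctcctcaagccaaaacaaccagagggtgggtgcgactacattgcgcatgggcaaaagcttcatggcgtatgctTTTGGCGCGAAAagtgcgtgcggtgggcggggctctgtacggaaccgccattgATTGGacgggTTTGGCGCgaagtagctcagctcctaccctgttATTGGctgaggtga
Mcm5 promoter, chr8:75109259-75109508, plus strand: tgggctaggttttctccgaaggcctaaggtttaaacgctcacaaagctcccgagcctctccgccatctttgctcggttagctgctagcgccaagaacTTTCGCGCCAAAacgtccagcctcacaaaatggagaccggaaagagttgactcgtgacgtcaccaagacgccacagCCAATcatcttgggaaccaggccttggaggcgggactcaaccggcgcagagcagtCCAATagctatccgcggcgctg
The Mki67 stretch holds 2 CHR and 3 CCAAT matches. In Ccnb2, 3 CCAAT boxes follow a CHR, each box starting 33 bases after the one before it. A second CHR match of Ccnb2 lies just after the start of transcription (position 4), beyond the CCAAT boxes and outside the printed stretch. Cdk1 carries 2 CHR, 3 CCAAT and 1 E2F match. The Mcm6 stretch holds 3 E2F and 2 CCAAT matches and the Mcm5 stretch 2 of each, with no CHR in either. In each of these MCM genes a pair of E2F matches on opposite strands shares 4 bases.

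Across the class, 14 of 19 mitosis members (73.7%) had a CHR, against 2 of 13 S phase members (15.4%), 1 of 8 G1 members (E2f2) and 16.8% of the 9908 listed genes with a promoter. Of all 32851 promoters in the table, 19.2% held one. All 14 mitosis members with a CHR also had a CCAAT box, a pair found in 7.04% of listed genes. CCAAT boxes alone were common, in 84.2% of mitosis members, 69.2% of S phase members and 42.8% of listed genes. E2F matches were found in 7 of 13 S phase members (53.8%), namely Cdc6, Cdt1, Mcm3, Mcm5, Mcm6, Mcm7 and Uhrf1. The share was 2 of 8 (Cdk2 and E2f2) in G1 members, 5.26% (Cdk1) in mitosis members, 4.74% in listed genes and 2.26% in all promoters. In 6 of the 14 mitosis members with a CHR (Aurka, Bub1, Cenpa, Cenpf, Kif23 and Plk1) it lay only after the start of transcription, as did the E2F matches of Cdt1, Mcm3 and E2f2. Differences between classes were not tested. These are matches of letters within 300 bases, not binding sites, and a member with no match may carry the element outside the window or in other letters.

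The samples were first checked against their labels. Between 55965515 and 71464042 reads fell on the listed genes per sample, and cKO samples held 1.07 times as many as WT samples on average. Mettl3 fell from 1251 ± 56.0 normalized counts (SD, n = 3) in WT to 334 ± 61.9 in cKO, with the lowest WT sample above the highest cKO sample. Normalized counts are reads divided by a size factor of the sample, as the authors deposited them. Cells carried the NK markers at high level, with sums over 12 NK markers of 847758 to 881030 in WT and 805895 to 844196 in cKO, of which 2 were called higher in cKO and 7 lower (limma, adjusted p under 0.05). Ncr1, whose locus carries the Cre allele, had 22394 ± 286 normalized counts in WT and 16918 ± 230 in cKO. Pairs of samples of the same genotype differed by more than sampling noise (chi-square per degree of freedom at least 5.50 in every pair). The labels do not say whether the 3 samples came from separate mice, so the p-values below measure only the spread between these samples, which may be technical.

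Cell cycle genes were higher in cKO NK cells, most widely among mitosis members, then among S phase members. cKO was compared with WT by a two-sided limma test on log2(normalized count + 1), p-values were adjusted over the 14490 genes by the Benjamini-Hochberg method, and a gene is called here where the adjusted p was under 0.05. Of the 51 members, 30 were called higher in cKO and 2 lower. Among all genes 36.6% were called, 17.8% higher and 18.8% lower. With samples scaled to equal totals these shares of all genes were 24.1% higher and 13.9% lower. Mitosis members were called higher in 19 of 25 cases (76.0%), S phase members in 9 of 15 (60.0%) and G1 members in 2 of 11 (18.2%), the last share close to that of all genes. No mitosis or S phase member was called lower, either by limma, by limma at an unadjusted p under 0.05 (0 and 0) or by limma-voom (0 and 0), while 2 G1 members were called lower.

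The sizes were modest. The median log2 fold change was 0.33 in mitosis members, 0.21 in S phase members and 0.07 in G1 members, against 0.0014 over all genes. On the linear scale the medians correspond to 1.26, 1.158 and 1.05 times the WT value. Mitosis members ranged from −0.10 (Kif23) to 0.67 (Birc5), S phase members from −0.04 (Cdt1) to 0.63 (Tk1) and G1 members from −0.16 (Rb1) to 0.57 (E2f2). The genotypes did not overlap in 35 members (68.6%), against 45.7% of all genes. In 34 of them every cKO sample was above every WT sample and in 1 (Rb1) every cKO sample lay below. Among all genes the shares were 22.7% above and 23.0% below. A log2 fold change above 0.5 with an adjusted p under 0.05 was reached by 8 members, a combination (in either direction) met by 6.95% of all genes. Those 8 were Birc5, Tpx2, Aurkb, Ccna2 and Cenpe of mitosis, Tk1 and Rrm2 of S phase, and E2f2 of G1.

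Some genes listed as markers of other cells differed between the genotypes too, most evenly in the B cell list. Of 10 B cell markers, 8 were called higher in cKO and 0 lower (8 and 0 also at an unadjusted p under 0.05 and by limma-voom). Their summed level was 1444 to 1455 normalized counts in WT and 1987 to 2067 in cKO, and no marker was at 0 in any sample. The sum of 9 T cell markers was 16528 to 17837 in WT and 12666 to 13303 in cKO, with 1 called higher and 2 lower (3 and 2 at an unadjusted p under 0.05). Without Cd28, the most abundant marker of that list (11867 ± 562 in WT), the ranges overlapped, at 5036 to 5324 and 4991 to 5276. For 8 myeloid markers the sums were 54480 to 57356 in WT and 52798 to 54631 in cKO, with 4 called higher and 2 lower. Without Itgax, the most abundant of them (40864 ± 1305 in WT), the sums were 14411 to 14985 and 9860 to 10861. The 2 called lower were Ly6c2 (7354 ± 145 in WT and 2905 ± 108 in cKO, SD, n = 3) and Lyz2 (2186 ± 92.4 and 1663 ± 176). The 4 called higher were Cd14, Adgre1, Itgax and Cd68, so the myeloid list did not move as a whole. For 7 erythroid markers the sums were 846 to 916 and 741 to 870, with 0 called by limma or limma-voom and 1 lower at an unadjusted p under 0.05. Of markers of immature NK cells 3 of 10 were called higher and 2 lower, and of mature NK cells 3 of 10 and 3. Whether transcripts of the B cell, T cell, myeloid and erythroid lists came from other cells or from NK cells was not tested. The part of other cells in the cell cycle values was not tested either.

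**Figure D1:**
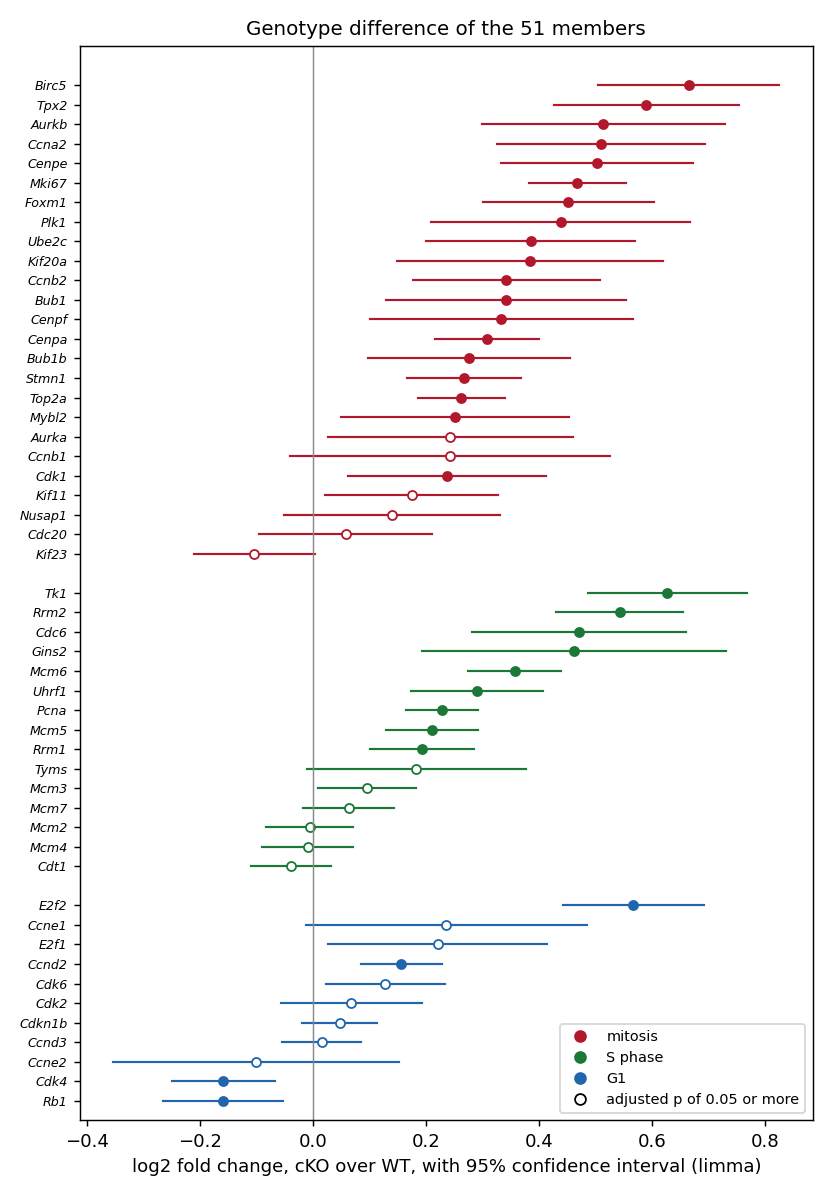
Log2 fold change of each of the 51 members, cKO over WT, with its 95% confidence interval from limma (x axis), grouped by class and ordered by size. Filled points have an adjusted p under 0.05. Nearly all mitosis members lie to the right of 0, S phase members lie between −0.04 and 0.63, and G1 members lie on both sides.

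Mitotic regulators were examined by role, starting with the markers of growth and chromosome structure. Mki67, which encodes the Ki-67 protein that coats mitotic chromosomes and marks cycling cells (chr7:135689784-135716361, minus strand, GRCm38), was at 5561, 4929 and 5562 normalized counts in the WT samples and at 7436, 7303 and 7422 in the cKO samples. The 3 cKO samples were close to one another and all above WT. The log2 fold change was 0.47 (SE 0.0417, adjusted p = 1.24e-09), or 38.3% more transcript. Top2a, the topoisomerase that untangles replicated chromosomes (chr11:98992943-99024189), had 4499, 4423 and 4391 in WT and 5226, 5411 and 5333 in cKO. Here too the genotypes did not overlap, and the log2 fold change was 0.26 (SE 0.0375, adjusted p = 3.32e-06).

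Next came the chromosomal passenger complex and the mitotic kinases, which correct the attachment of chromosomes to the spindle and drive entry into and exit from mitosis. Birc5, which encodes survivin, a passenger subunit (chr11:117849251-117855743), showed the largest change of any member. Its values were 570, 547 and 540 in WT and 828, 914 and 889 in cKO, so that the lowest cKO sample stood far above the highest WT sample. The log2 fold change was 0.67 (95% confidence interval 0.50 to 0.83, adjusted p = 1.49e-07), or 1.59 times WT. The passenger kinase gene Aurkb and the kinase gene Plk1 were also higher, by 0.51 (adjusted p = 0.000306) and 0.44 (adjusted p = 0.00269) on the log2 scale. The spindle pole kinase gene Aurka had cKO samples above all WT samples but missed the threshold (0.24, adjusted p = 0.073).

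Spindle genes were mixed. Tpx2, which encodes a spindle assembly factor that activates Aurora A (chr2:152847964-152895321), had 643, 785 and 684 normalized counts in WT and 973, 1107 and 1096 in cKO. WT 2 was the highest WT sample and still below cKO 1, the lowest of the other genotype. The log2 fold change was 0.59 (SE 0.0796, adjusted p = 1.37e-06). Stmn1, which encodes the microtubule destabilizer stathmin, and the kinesin gene Kif20a were called higher as well (0.27 and 0.38), Kif20a not without cKO 2 (adjusted p = 0.0689). Of the other kinesin and spindle genes, Kif11 (0.17, adjusted p = 0.0698), Nusap1 (0.14, adjusted p = 0.26) and Kif23 (−0.10, adjusted p = 0.125) were not called. Kif23, a subunit of the centralspindlin complex of cytokinesis, was the single mitosis member with a value below 0, at 2053 ± 56.8 in WT and 1912 ± 97.8 in cKO (SD, n = 3).

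All 3 centromere and kinetochore members were called higher. Cenpa, the histone H3 variant that marks centromeres (chr5:30666777-30674830), had 2633, 2466 and 2498 normalized counts in WT and 3160, 3161 and 3085 in cKO. The samples of each genotype lay close together and the genotypes were well apart (log2 fold change 0.31, SE 0.0446, adjusted p = 3.93e-06). The kinetochore motor gene Cenpe was higher by 0.50 (adjusted p = 2.27e-05) and the kinetochore protein gene Cenpf by 0.33 (adjusted p = 0.0216), a call lost without WT 1, WT 3 or cKO 3 (adjusted p up to 0.0977). Of the spindle checkpoint and anaphase-promoting complex genes, Ube2c (0.39), Bub1 (0.34) and Bub1b (0.28) were called higher. Cdc20, which activates that complex, was at 792 ± 45.0 in WT and 824 ± 37.7 in cKO (0.06, adjusted p = 0.59). Bub1 and Bub1b were highest in cKO 2, where they reached 635 and 1085 against 472 and 520, and 908 and 867, in the other cKO samples. Without that sample their log2 fold changes were 0.22 (adjusted p = 0.122) and 0.18 (adjusted p = 0.136), and Bub1b also lost its call without WT 1 or without WT 3.

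The mitotic cyclins and their kinase moved less evenly. Cdk1, the kinase of mitotic entry (chr10:69335146-69352938), had 504, 501 and 523 normalized counts in WT and 593, 623 and 587 in cKO. No cKO sample fell within the WT range. The log2 fold change of 0.24 (SE 0.0853) had an adjusted p of 0.0297 and lost its call when any of 5 samples was left out (all but WT 3). Ccnb1, the cyclin B1 gene, had 201, 221 and 182 in WT and 235, 232 and 247 in cKO. It too was higher in every cKO sample, with a fold change of 0.24 on the log2 scale like that of Cdk1, but a wider interval (−0.04 to 0.52, adjusted p = 0.179). Cyclin A2, which acts in S phase and G2, and cyclin B2 were called higher at the genes Ccna2 (0.51, adjusted p = 5.27e-05) and Ccnb2 (0.34, adjusted p = 0.00135).

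Both transcription factor genes of the mitotic program were higher. Foxm1 (chr6:128362967-128376146) had 778, 893 and 812 normalized counts in WT and 1033, 1186 and 1181 in cKO. WT and cKO samples did not overlap, and the log2 fold change was 0.45 (SE 0.0736, adjusted p = 1.99e-05). Mybl2, which encodes B-MYB, had 430 ± 24.6 in WT and 514 ± 46.5 in cKO (SD, n = 3). Its log2 fold change of 0.25 was just past the threshold (adjusted p = 0.0454) and missed it in 6 of 13 alternatives, limma-voom and 5 of the fits without 1 sample (all but cKO 3).

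**Figure D2:**
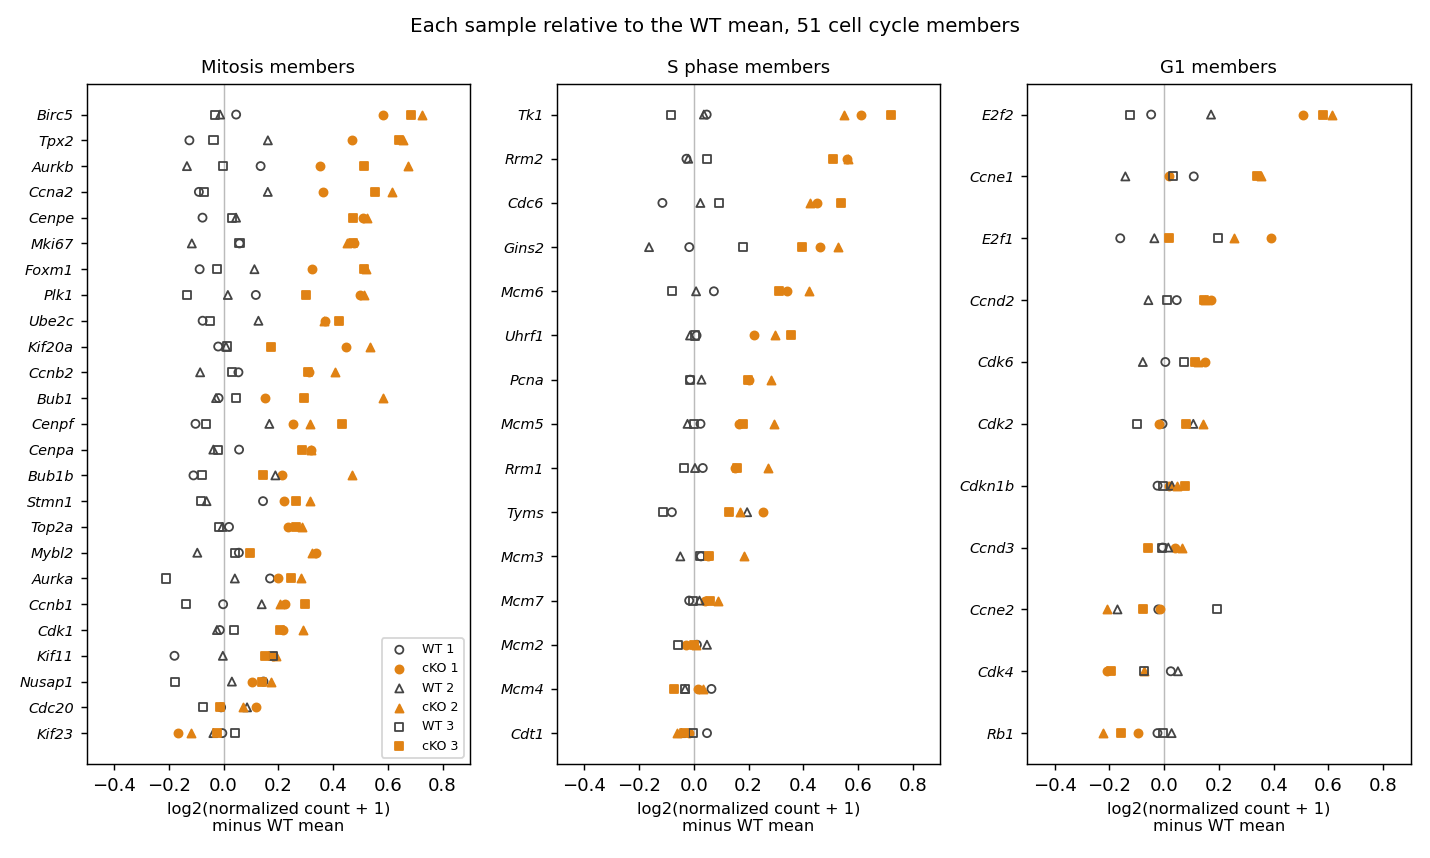
Each sample's log2(normalized count + 1) minus the WT mean of the gene (x axis), for the 51 members in 3 panels by class. Open grey marks are WT and filled orange marks cKO, with circle, triangle and square for samples 1, 2 and 3. Birc5, Tpx2, Tk1 and Rrm2 show a wide gap between the genotypes, and in Kif23, Mcm2, Mcm4, Cdt1 and Ccnd3 the marks are mixed.

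Rrm2 and Tk1, the S phase members with the largest changes, are genes of nucleotide supply, which make the deoxynucleotides for DNA synthesis. Rrm2, the S phase subunit of ribonucleotide reductase (chr12:24708241-24714146), had 1229, 1235 and 1295 normalized counts in WT and 1844, 1850 and 1783 in cKO. The spread within each genotype was small beside the gap between them. Its log2 fold change was 0.54 (SE 0.0549, adjusted p = 1.19e-08). Tk1, the thymidine kinase of the salvage pathway (chr11:117815526-117826092), had 847, 841 and 774 in WT and 1253, 1200 and 1353 in cKO, again with no overlap. At 0.63 (SE 0.0684, adjusted p = 4.46e-08), or 1.54 times WT, it was the S phase member that changed most. The large reductase subunit gene Rrm1 was higher by 0.19 (adjusted p = 0.0012). Thymidylate synthase, Tyms, was not called (0.18, adjusted p = 0.135), with WT 2 at 587 within the cKO range of 561 to 610.

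The 6 subunits of the MCM helicase, which assemble into 1 ring that unwinds DNA at the fork, did not move alike. Mcm6 (chr1:128331590-128359664) had 7222, 6904 and 6490 normalized counts in WT and 8699, 9182 and 8508 in cKO. All cKO samples were above WT, with a log2 fold change of 0.36 (SE 0.0398, adjusted p = 6.53e-08). Mcm5 (chr8:75109569-75128439) had 5016, 4854 and 4929 in WT and 5523, 6035 and 5585 in cKO. Its rise was smaller, at 0.21 (SE 0.0398, adjusted p = 0.000127), with cKO 2 above the other cKO samples.

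Mcm2 (chr6:88883474-88898780), by contrast, had 5888, 6040 and 5609 in WT and 5732, 5877 and 5849 in cKO. The samples of the genotypes were interleaved, and the log2 fold change was −0.01 with a 95% confidence interval of −0.08 to 0.07, which leaves out a change as large as that of Mcm6 or Mcm5. Mcm4 was at −0.01 (−0.09 to 0.07) and both Mcm2 and Mcm4 turned to 0.04 with samples scaled to equal totals, where neither was called (adjusted p = 0.371 and 0.426). Mcm3 (0.10, adjusted p = 0.0792) and Mcm7 (0.06, adjusted p = 0.222) missed the threshold and passed it with equal totals (adjusted p = 0.00653 and 0.0201). Differences between subunits were not tested.

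Pcna, the sliding clamp that holds DNA polymerase on its template, was the most abundant member (chr2:132249162-132253314). It had 26661, 27437 and 26646 normalized counts in WT and 30946, 32734 and 30900 in cKO. Every cKO sample exceeded every WT sample by more than the spread within either genotype, and the log2 fold change was 0.23 (SE 0.031, adjusted p = 1.52e-06), or 17.1% more. Uhrf1, which carries DNA methylation through replication, had 1310, 1288 and 1305 in WT and 1515, 1599 and 1664 in cKO. WT samples were nearly the same and all cKO samples higher (0.29, SE 0.057, adjusted p = 0.000198). Of the licensing and initiation genes, Cdc6 was higher by 0.47 (adjusted p = 0.000202) and Gins2 by 0.46 (adjusted p = 0.00651). Cdt1, which loads the MCM ring, was at 9309 ± 302 in WT and 9063 ± 132 in cKO (SD, n = 3), with a log2 fold change of −0.04 that became 0.01 with equal totals, not called in either. In Gins2, 67.3% of exon bases are shared with Gse1 on the opposite strand, and whether reads were counted by strand is not given in the sources used here, so its counts may hold reads of Gse1.

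Of 11 G1 members 4 were called (36.4%), 2 higher and 2 lower. These shares were close to those of all genes (36.6% called, 17.8% higher and 18.8% lower). E2f2, an activator E2F (chr4:136172394-136196057), had 1566, 1823 and 1485 normalized counts in WT and 2302, 2476 and 2422 in cKO. The genotypes were clearly apart, with a log2 fold change of 0.57 (SE 0.0609, adjusted p = 3.38e-08), or 1.48 times WT. Its relative E2f1 was at 695 ± 88.7 in WT and 811 ± 103 in cKO (0.22, adjusted p = 0.0683), with WT 3 at 792 above cKO 3 at 700. Ccnd2, the cyclin D2 gene (chr6:127125162-127152193), had 8999, 8375 and 8788 in WT and 9826, 9670 and 9650 in cKO. It was higher in every cKO sample, by 0.16 (SE 0.0347, adjusted p = 0.00075).

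Cyclin D3, encoded by Ccnd3, was more abundant than Ccnd2 per kilobase of exon. It had 12125, 12301 and 12093 normalized counts in WT and 12498, 12734 and 11698 in cKO. cKO samples stood on both sides of WT, with a log2 fold change of 0.02 (−0.06 to 0.09, adjusted p = 0.773) that turned to −0.0097 without cKO 2. The kinases that pair with these cyclins went different ways. Cdk4 (chr10:127063534-127067920) had 4572, 4655 and 4269 in WT and 3890, 4276 and 3929 in cKO. WT 3 and cKO 2 were about level and the other samples separated, with a log2 fold change of −0.16 (SE 0.0443, adjusted p = 0.00588). Cdk6 had 1925, 1818 and 2019 in WT and 2127, 2090 and 2075 in cKO. Its cKO samples were all above WT, but the log2 fold change of 0.13 was just short of the threshold (adjusted p = 0.0517) and past it in 5 of 13 alternatives.

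Rb1, the retinoblastoma gene that restrains E2F factors (chr14:73183673-73325822), had 1982, 2055 and 2012 normalized counts in WT and 1888, 1725 and 1808 in cKO. All cKO samples were below WT, and the log2 fold change was −0.16 (SE 0.0516, adjusted p = 0.0166). That call was lost with equal totals and without WT 2 or cKO 2, at adjusted p up to 0.101. Cdkn1b, which encodes the CDK inhibitor p27 of resting cells, had 13099, 13584 and 13282 in WT and 13472, 13764 and 14055 in cKO. The ranges overlapped at WT 2, and the log2 fold change was 0.05 (−0.02 to 0.11, adjusted p = 0.27). The remaining G1 members were not called, with Ccne1 at 0.24 (adjusted p = 0.135), Cdk2 at 0.07 (adjusted p = 0.419) and Ccne2 at −0.10 (adjusted p = 0.568). Cdk4 and Rb1 share 19.7% and 14.9% of their exon bases with genes on the opposite strand, a limit that holds more strongly for Kif20a (29.3%) and Ube2c (22.8%) of the mitosis class.

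**Figure D3:**
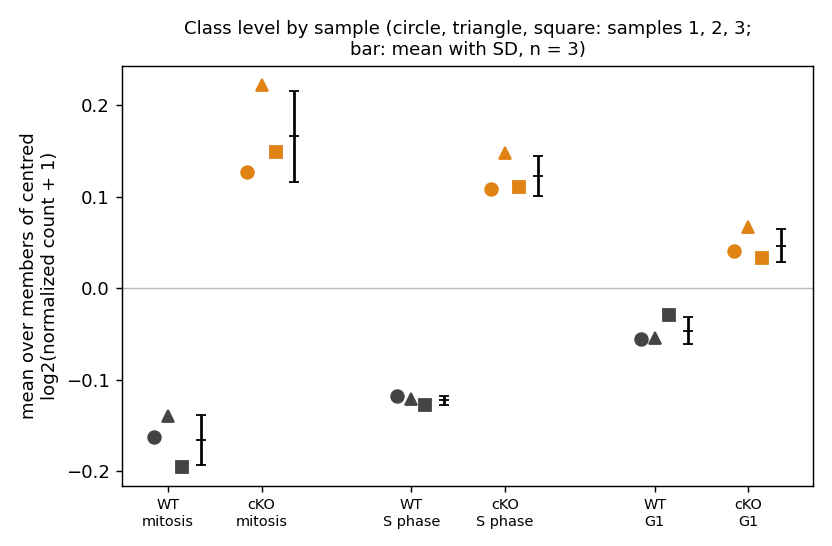
Mean over the members of a class of log2(normalized count + 1), each gene centred on its own mean over 6 samples (y axis), for each sample, with the mean and SD of 3 samples beside the points. Circle, triangle and square are samples 1, 2 and 3. The cKO samples lie above the WT samples in all 3 classes, by most in mitosis and least in G1, where the ranges overlap once E2f2 is left out.

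Averaged over all its members, each class was higher in every cKO sample than in any WT sample. The mean centred log2 value of the mitosis class ran from −0.19 to −0.14 in WT samples and from 0.13 to 0.22 in cKO samples. For S phase the ranges were −0.13 to −0.12 and 0.11 to 0.15, and for G1 −0.06 to −0.03 and 0.03 to 0.07. Without E2f2, left out after its values were seen, the G1 ranges overlapped, at −0.05 to 0.0088 in WT and 0.0061 to 0.04 in cKO. The mean log2 fold change of the class went from 0.093 to 0.045, beside a median of all genes of 0.0014 on the same scaling. With equal totals the median of all genes was 0.051, but that scaling raised the class medians as well. Without its member of largest change, neither the mitosis nor the S phase class overlapped between genotypes. The distance between the genotypes was thus widest for mitosis, and it was many times the spread within WT for S phase, whose 3 WT samples were nearly level. Members of a class are not independent, so no p-value is given for these means. The sample cKO 2 was the highest of all 6 for 18 of 25 mitosis members, 8 of 15 S phase members and 4 of 11 G1 members. Without cKO 2, 26 members were called in place of 32, 14 of them in mitosis, 9 in S phase and 3 in G1. A fit with 1 sample fewer has less power for every gene, and leaving out 1 sample gave 26 to 32 called members across the 6 samples. Why the count fell without cKO 2 was not tested, so it is not read as a result about the members. A fit without cKO 1 moved the G1 median from 0.07 to 0.11.

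Levels in WT NK cells, per kilobase of exon, separated the classes in another way. The median WT level was 840 normalized counts per kilobase in S phase members, 333 in G1 members and 144 in mitosis members, beside 234 over all genes with a known length. Pcna stood highest, at 11214 normalized counts per kilobase, ahead of Cdt1 (2965) and the G1 brake Cdkn1b (2927). Stmn1 was the most abundant mitosis member (2035) and Cenpf the least abundant of all members (20.04). The MCM genes lay between 840 and 1719. Members called higher were found over most of this range, from Cenpf to Pcna. Among the 5 most abundant members per kilobase, Pcna and Stmn1 were called higher and Cdt1, Cdkn1b and Mcm4 were not called.

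**Figure D4:**
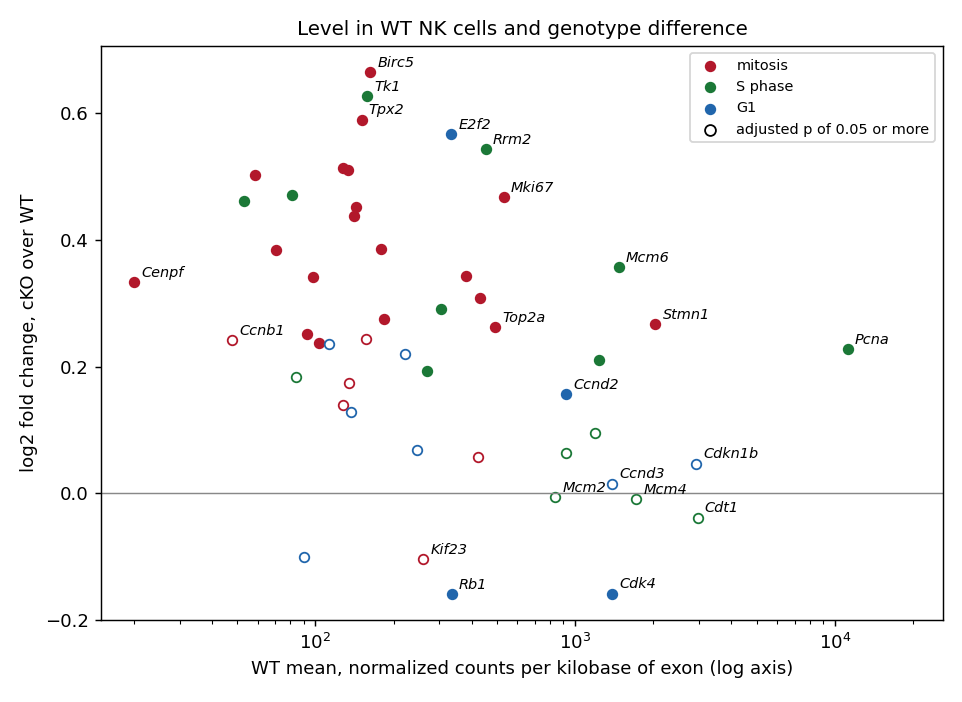
WT mean level in normalized counts per kilobase of exon (x axis, log scale) against the log2 fold change, cKO over WT (y axis), for the 51 members coloured by class. Filled points have an adjusted p under 0.05. Members above a log2 fold change of 0.5 lie at 452 normalized counts per kilobase (Rrm2) or lower, and Pcna stands alone at the right with 0.23.

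The motif matches of the promoters were set beside the size of change, as description only. Mitosis members with a CHR had a median log2 fold change of 0.29 (10 of 14 called higher), and those without one 0.25 (3 of 5 called higher). Birc5, which changed most, had no CHR, CCAAT or E2F match in the window, while Kif23 and Cdc20 had both a CHR and a CCAAT box and were not called. S phase members with an E2F match had a median of 0.21 (4 of 7 called higher) and those without one also 0.21 (4 of 6). Within the MCM genes, Mcm2 and Mcm7 carried a CHR with a CCAAT box and were not called, and Mcm5 and Mcm6 carried E2F matches and were called. Mcm3 and Mcm7 carried E2F matches as well and were not called, and Mcm4 had no matched promoter. E2f2, the G1 member with the largest change, had an E2F match in one promoter and a CHR in the other. These counts are too small to compare and no test was made.

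Other genes of the same phases showed the same order of classes. They were listed by textbook role but with earlier results of these data known, so they are not an independent check. Of 145 such genes, 144 were measured and Cdkn2a was not analysed here. In mitosis 33 of 58 were called higher and 2 lower (median log2 fold change 0.24), in S phase 23 of 50 higher and 0 lower (0.13), and in G1 9 of 36 higher and 9 lower (0.10). Among all genes 17.8% were called higher and 18.8% lower. For the S phase list an unadjusted p under 0.05 gave 29 higher and 0 lower, and limma-voom 22 and 0. Tacc3, a spindle protein gene, had 1112, 991 and 1044 normalized counts in WT and 1430, 1547 and 1431 in cKO (0.49, adjusted p = 7.45e-07), and Cdca5, which encodes the cohesin regulator sororin, was higher by 0.63 (adjusted p = 3.42e-06). The genotypes did not overlap in either gene.

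The mitosis genes called lower were Pttg1 and Smc4. Pttg1, which encodes securin, the inhibitor of separase, had 2047, 2097 and 1831 in WT and 1561, 1618 and 1420 in cKO (−0.38, adjusted p = 1.53e-05). Smc4, a condensin subunit gene, was lower by a smaller amount (−0.21, adjusted p = 1.67e-05). In S phase the lowest adjusted p values belonged to Asf1b, a histone chaperone gene (0.58, adjusted p = 3.62e-07), and Gmnn, which encodes geminin, the inhibitor of CDT1 (0.53, adjusted p = 1.37e-06). Gmnn had 658, 688 and 732 in WT and 1030, 1007 and 973 in cKO. Its samples were clearly apart by genotype, unlike those of Cdt1.

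Of the other G1 genes, the lowest adjusted p in each direction belonged to Ccng2 and Btg2, called lower, and to Tob1 and Cdc25a, called higher. Ccng2, an atypical cyclin of resting cells, had 27410, 27163 and 27435 normalized counts in WT and 22151, 23242 and 22383 in cKO (−0.28, SE 0.03, adjusted p = 4.46e-08). Btg2, an antiproliferative gene at very high level in these cells, had 177594, 184761 and 177476 in WT and 147672, 151848 and 146515 in cKO (−0.28, adjusted p = 4.66e-08). In both, all cKO samples lay well below WT. Tob1, of the same antiproliferative family as Btg2, was higher (0.19, adjusted p = 2.8e-05), and Cdc25a, the phosphatase that activates CDK2, was higher by 0.45 (adjusted p = 0.000112).

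**Figure D5:**
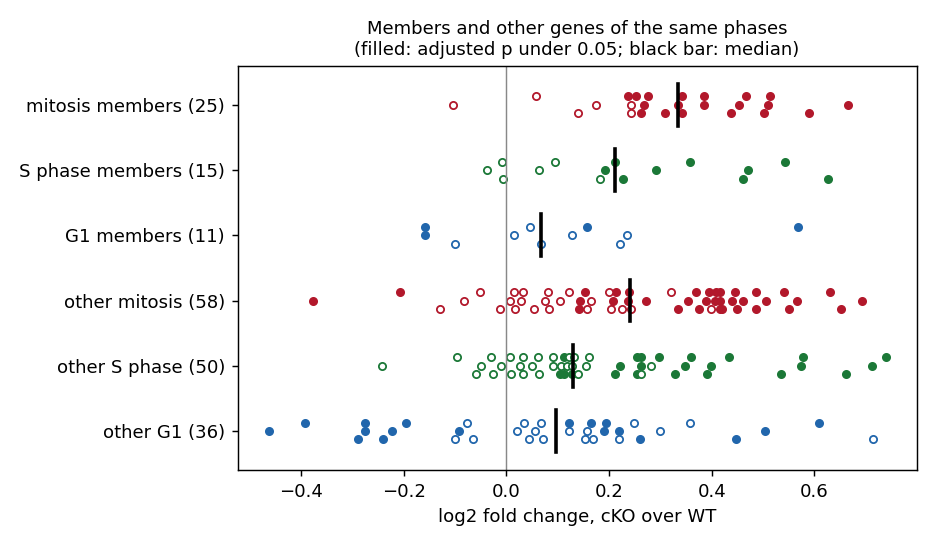
Log2 fold change, cKO over WT (x axis), of the members and of the other genes listed for the same phases, 1 point per gene, with the number of genes in brackets. Filled points have an adjusted p under 0.05 and black bars are medians. Mitosis lists lie furthest to the right, and the other G1 genes spread to both sides of 0.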

How the data were processed

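mRNA-seq libraries of sorted splenic NK cells were compared between WT and cKO, 3 samples each, grouped by the titles in the sample labels. The authors mapped the read pairs on GRCm38 (HISAT2), took counts per gene from featureCounts and ran DESeq2. For the tools the authors used, the submitters' processing notes name featureCounts 1.5.0-p3 and DESeq2 1.16.1, while the authors' methods give other versions of the aligner and of DESeq2. The value the authors deposited per gene and sample is a signal, namely its count after division by a DESeq2 size factor. The deposited columns of the authors' own comparison hold a log2 fold change with its standard error, a Wald statistic as a score, and p-value and adjusted p-value, and were not used. In every sample all low values were whole multiples of 1 step (tolerance 0.01), from which the reads on listed genes were taken. With 3 samples per genotype an exact permutation test of a single gene cannot go below p = 0.1.

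Values were taken as log2(value + 1) and fitted by limma 3.58.1 in R 4.3.3 with trend in the variance. The Benjamini-Hochberg method was applied to two-sided p-values over 14490 genes. A filter (value of 1 or more in 3 or more samples) removed none. The added 1 brings low counts closer together. The 3 classes, the other cell cycle genes and the marker lists were set by known role, and members and lists were chosen with earlier results of these data known. Members given with every sample's value were those called among the 6 lowest adjusted p of a class, plus Mki67, Top2a, Ccnb1, Cdk1, Pcna, Mcm2, Rrm2, Ccnd2, Ccnd3, Cdk6, Cdkn1b, Rb1 and E2f2. Other cell cycle genes named were the 2 lowest adjusted p per direction and list. Levels between genes were divided by exon length (GENCODE M21, GRCm38), known for 97.1% of genes. The main limma fit was tested on simulated counts, and the other steps were not. Alternatives were a pseudocount of 0.1, other filters and scalings, limma-voom, a replicate block, a fold limit and each sample left out. 1 marker gene named by the rule is not reported here.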

Additional observations from a re-analysis of the deposited data

How the results depend on the processing

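Of 32 called members, 25 kept their call and direction in all 13 alternatives (13 of mitosis, 9 of S phase and 3 of G1), 7 lost it in at least 1 (Cdk1, Mybl2, Bub1, Bub1b, Cenpf, Kif20a and Rb1), and 0 reversed. Kif20a lost its call without cKO replicate 2, and Cenpf without WT replicate 1, WT replicate 3 or cKO replicate 3. Of 19 members not called, 9 gained a call in at least 1 alternative. Counts of called members ran from 31 (limma-voom) to 38 (equal totals), and from 26 to 32 with 1 sample left out. A further limit of 0.5 on the size of the log2 change leaves fewer calls by construction, 1007 of all genes, 8 members (5 of mitosis, 2 of S phase, 1 of G1) and 15 other cell cycle genes. Scaling to equal totals moved the median of all genes from 0.0014 to 0.051 and the class medians to 0.38 for mitosis, 0.26 for S phase and 0.12 for G1. With 1 sample left out the G1 median ran from 0.045 to 0.11. Members near 0 changed sign, none with a call. Mcm2 was at 0.044 with equal totals, 0.018 without WT replicate 2 and 0.0049 without cKO replicate 1, and ranged from −0.035 to 0.018 with 1 sample left out. Mcm4 was at 0.041 with equal totals and 0.023 without WT replicate 1 or without cKO replicate 3, with a range from −0.030 to 0.023. Cdt1 was at 0.011 with equal totals, and Ccnd3 at −0.0097 without cKO replicate 2. The causes were not tested.

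Replicate numbers were shared between the genotypes, but deviations of same-numbered samples from their group means did not go together in every pair (Pearson correlation over 2000 genes −0.28, 0.44 and 0.33 for numbers 1, 2 and 3), and WT 1 correlated best with cKO 3 (0.24), so the numbers were not taken to pair the samples. A fit with the replicate block called 5543 genes in place of 5307, 33 members in place of 32 and 81 other cell cycle genes in place of 76, with class medians as before. The edgeR and DESeq2 alternatives were not run. Depth limits the members with few reads, such as Ccnb1 and Gins2, whose intervals were wide.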
